A study of Mus musculus with 12 samples.

Results

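The 8 genes described here encode transcription factors that build and run the myeloid lineage of blood cells, and they were chosen by name: Spi1, Cebpa, Cebpb, Cebpd, Cebpe, Irf8, Gfi1 and Runx1. All 8 were in the normalized gene table of the colon, which holds 32689 genes, and in that of the blood, which holds 25514, out of 53801 genes counted. Total RNA was sequenced from the colon and whole blood of male C57BL/6 mice, 8 weeks old, in a study that models ulcerative colitis (UC). To induce it, dextran sulfate sodium (DSS), a sulfated sugar polymer that is toxic to gut epithelium, is added to the drinking water of the mice. By the labels, which the inflammatory genes go against, mice 1, 2 and 4 (UC) received 1.5% DSS for 7 days, mice 7, 8 and 9 (control) received none, and all were killed on day 8. Each mouse gave 1 colon and 1 blood library, so that the 12 libraries form 4 labelled groups of 3. The study picked these mice on their disease activity, and it removed globin RNA in addition to ribosomal RNA from the blood libraries alone, so that tissue and library kit cannot be told apart.

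Blood cell fate is set by a small circuit of such factors that bind to each other's genes and to shared target genes. PU.1, the product of Spi1, is an ETS factor that opens the enhancers of macrophages and neutrophils, and it pairs with IRF8 on composite ETS-IRF sites in monocytes, dendritic cells and B cells. The C/EBP proteins are leucine zipper factors that take the granulocyte path in steps, with C/EBPα early, C/EBPε late and C/EBPβ and C/EBPδ in the response to infection and injury. GFI1 is a zinc finger repressor needed for neutrophils, and RUNX1 is the core binding factor that starts blood formation in the embryo and stays on in most white cells and in platelet precursors. Several of these genes are also used outside the blood: C/EBPα, C/EBPβ and C/EBPδ in fat, liver and epithelium, and GFI1 in secretory cells of the gut epithelium.

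Colon libraries held 69181049 to 103662306 counts in total and blood libraries 80867247 to 142536804. The tissue characteristic of the labels, which a second label field contradicts in every sample, was matched by the markers: 7 of 7 epithelial and 5 of 5 fibroblast genes were higher in the colon and 6 of 6 red cell genes higher in the blood (edgeR, below). The disease labels went against the inflammatory genes, which were highest in mice 1, 7 and 9 in each tissue. The pair S100a8 and S100a9, calgranulins of neutrophils, summed to at least 4025 normalized counts in the colon of these 3 mice and to at most 205 in that of mice 2, 4 and 8. A plot of the samples that accompanies the study marks mice 1, 7 and 9 as given DSS and mice 2, 4 and 8 as controls, so that mouse 1 is treated and mouse 8 untreated in both versions and the other 4 mice change places. For this reason groups are named "labelled UC" and "labelled control", every member is given by mouse, and no direction below is one between treated and untreated mice. In whole tissue, fewer cells of a type and less RNA per cell cannot be told apart.

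The members lie at 8 separate places in the genome (GRCm38). Spi1 (ENSMUSG00000002111) spans 91082390 to 91115756 on the plus strand of chromosome 2, and Cebpb (ENSMUSG00000056501) lies on the same chromosome and strand at 167688915 to 167690418. Cebpa (ENSMUSG00000034957) is at 35119293 to 35121928 on the plus strand of chromosome 7, and Cebpe (ENSMUSG00000052435) at 54710360 to 54712174 on chromosome 14, minus strand. Chromosome 16 holds Cebpd (ENSMUSG00000071637), at 15887286 to 15891031 on the plus strand, and Runx1 (ENSMUSG00000022952), at 92601466 to 92826149 on the opposite strand. Irf8 (ENSMUSG00000041515) is at 120736358 to 120756694 on the plus strand of chromosome 8, and Gfi1 (ENSMUSG00000029275) at 107716657 to 107726036 on chromosome 5, minus strand. Their gene structures differ widely: Cebpa, Cebpb and Cebpd each have a single exon block, whereas the exons of Runx1 spread over 224684 bases. Antisense genes share exon bases with Cebpb (312 bases of Tmem189) and Cebpd (562 bases of Spidr), and the counting is not stated to use strand, so that 18.1% of the 50-base words of Cebpb and 13.7% of those of Cebpd could not be told from the partner gene. In the colon, Tmem189 reached 3982 counts in a library and Spidr 2486. Shorter antisense overlaps lie in Cebpa (51 bases of Gm45091), Gfi1 (101 bases of A430072P03Rik) and Runx1 (106 bases of Gm26626). They touch at most 1.05% of the 50-base words of these genes. No 50-base word was shared between members.

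Promoter sequences from RefSeq (GRCm38.p6, 250 bases before to 50 bases after the start site) were on hand for 5 of the 8 genes: Cebpa, Cebpb, Gfi1, Irf8 and Runx1. The windows printed here are those of Cebpb and Irf8, both highest in the colon of mice 1, 7 and 9, Cebpa, whose colon values varied least of the 8, and the pair of Runx1 start sites, distal and proximal, from which its long and short forms begin. Capitals mark a match to a searched motif, and each line gives the base coordinates and the strand that the sequence follows.
Cebpb (chr2:167688665-167688964, plus strand): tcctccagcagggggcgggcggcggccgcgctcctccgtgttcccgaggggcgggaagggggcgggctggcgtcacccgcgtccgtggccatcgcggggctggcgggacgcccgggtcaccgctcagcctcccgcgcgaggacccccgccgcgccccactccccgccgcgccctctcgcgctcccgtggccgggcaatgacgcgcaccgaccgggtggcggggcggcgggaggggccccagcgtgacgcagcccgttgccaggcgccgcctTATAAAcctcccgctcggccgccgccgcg
Irf8 (chr8:120736108-120736407, plus strand): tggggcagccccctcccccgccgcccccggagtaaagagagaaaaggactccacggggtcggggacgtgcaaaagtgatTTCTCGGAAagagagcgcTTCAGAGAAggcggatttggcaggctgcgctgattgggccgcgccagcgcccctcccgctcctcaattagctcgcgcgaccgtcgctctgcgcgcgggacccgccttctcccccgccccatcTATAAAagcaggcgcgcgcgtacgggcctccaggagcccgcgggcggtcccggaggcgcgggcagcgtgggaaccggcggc
Cebpa (chr7:35119043-35119342, plus strand): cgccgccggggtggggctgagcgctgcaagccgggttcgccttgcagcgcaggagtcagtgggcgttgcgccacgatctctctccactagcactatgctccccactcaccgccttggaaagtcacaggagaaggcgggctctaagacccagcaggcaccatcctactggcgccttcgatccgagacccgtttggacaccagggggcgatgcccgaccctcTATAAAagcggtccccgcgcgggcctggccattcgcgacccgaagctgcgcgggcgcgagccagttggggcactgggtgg
Runx1, distal start (chr16:92826025-92826324, minus strand): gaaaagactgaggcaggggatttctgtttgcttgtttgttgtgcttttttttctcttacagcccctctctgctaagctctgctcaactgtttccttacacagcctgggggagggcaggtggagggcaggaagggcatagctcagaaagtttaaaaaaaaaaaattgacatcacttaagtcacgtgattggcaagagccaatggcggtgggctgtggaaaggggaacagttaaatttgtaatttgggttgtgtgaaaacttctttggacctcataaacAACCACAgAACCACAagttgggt
Runx1, proximal start (chr16:92697280-92697579, minus strand): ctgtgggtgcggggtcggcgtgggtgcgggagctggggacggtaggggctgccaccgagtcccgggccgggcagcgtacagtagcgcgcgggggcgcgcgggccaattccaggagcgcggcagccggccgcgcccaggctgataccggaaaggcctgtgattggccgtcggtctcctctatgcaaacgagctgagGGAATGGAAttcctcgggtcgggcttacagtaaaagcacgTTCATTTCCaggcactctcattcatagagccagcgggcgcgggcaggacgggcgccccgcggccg
The search covered 8 motifs on both strands: PU.1 (GAGGAAGT), the ETS-IRF composite (GGAANNGAA), IRF (GAAANNGAA), C/EBP (TTGCNNAA), RUNX (TGTGGTT), STAT (TTCNNNGAA), CRE (TGACGTCA) and the TATA box (TATAAA). The proximal promoter of Runx1 held 2 ETS-IRF composites, whose first bases lay 55 and 15 bases before the start site, and 8.24% of the 32851 promoters in the RefSeq table held at least 1. In the distal promoter, 2 copies of the RUNX motif began 28 and 36 bases after the start site, a motif found in 5.27% of all promoters. The Irf8 window printed here had 2 STAT motifs, at 171 and 153 bases before the start site (8.3% of all promoters), and a TATA box 31 bases before it. A window at another Irf8 start site (chr8:120738389-120738688), not printed, held no match to any of the 8 motifs. The PU.1, IRF and CRE motifs were found in 0 of the 8 windows of the 5 genes. Cebpa had a TATA box 30 bases before its start site, and the TATA box of Cebpb began 22 bases after the listed start (13.6% of all promoters hold TATAAA). The windows also differ in base content, since G and C made up 80.7% of the Cebpb window and 45% of the distal Runx1 window, against a median of 52.7% over all promoters. These matches describe letters in a window and not binding.

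In the colon, the members that differed most between mice, among the 7 with a mean of at least 50 normalized counts, were Cebpb and Spi1. In mice 1, 2 and 4, labelled UC, Spi1 stood at 411, 131 and 194 normalized counts, and in mice 7, 8 and 9, labelled control, it stood at 627, 198 and 990. Cebpb, in the same order of mice, stood at 816, 483 and 297 normalized counts in labelled UC colon against 1927, 580 and 2341 in labelled control colon. Cebpd, an acute phase C/EBP, had 3650, 2830 and 2064 normalized counts against 7145, 2468 and 8156. For these 3 genes mice 7 and 9 were the highest and mouse 1 came next, and since mouse 8 stayed low the labelled groups overlapped. Irf8 followed them, with 6490, 3456 and 4288 normalized counts in labelled UC colon against 7633, 3465 and 8199 in labelled control colon.

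The other members followed different patterns across the colon libraries. Cebpa counts after normalization were 3433, 2298 and 2188 in labelled UC colon and 3440, 2434 and 2411 in labelled control colon, so that its highest value was only 1.57 times its lowest. Runx1 stood at 1293, 1108 and 1108 normalized counts in labelled UC colon and at 1774, 1358 and 2327 in labelled control colon. It was the only member whose labelled groups did not overlap in the colon, as was true of 5.66% of all genes with a mean high enough to be tested. Gfi1 stood at 558, 236 and 516 normalized counts against 1031, 431 and 229, and mouse 9, the highest for Spi1, Cebpb, Cebpd and Irf8, was the lowest for Gfi1. The summed normalized counts of 7 epithelial markers were also lowest in mouse 9, at 724475, and next lowest in mouse 2, at 866553, the pair of libraries with the least Gfi1. Of the 7 markers, only Epcam and Car1 were lowest in mouse 9 and next lowest in mouse 2. Lgr5 was highest in mouse 2, at 794, and Muc2 was lowest in mouse 4, at 151064. The part of epithelial cells in the level of Gfi1 was not tested. Cebpe, the late granulocyte factor, had at most 31 counts in a colon library, or 2.84, 0 and 4.95 normalized counts in labelled UC colon against 13.9, 0 and 27.9 in labelled control colon. A count of 0 allowed up to 2.61 normalized counts in mouse 2 and up to 3.78 in mouse 8 (3 counts, counting error only).

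**Figure D1:**
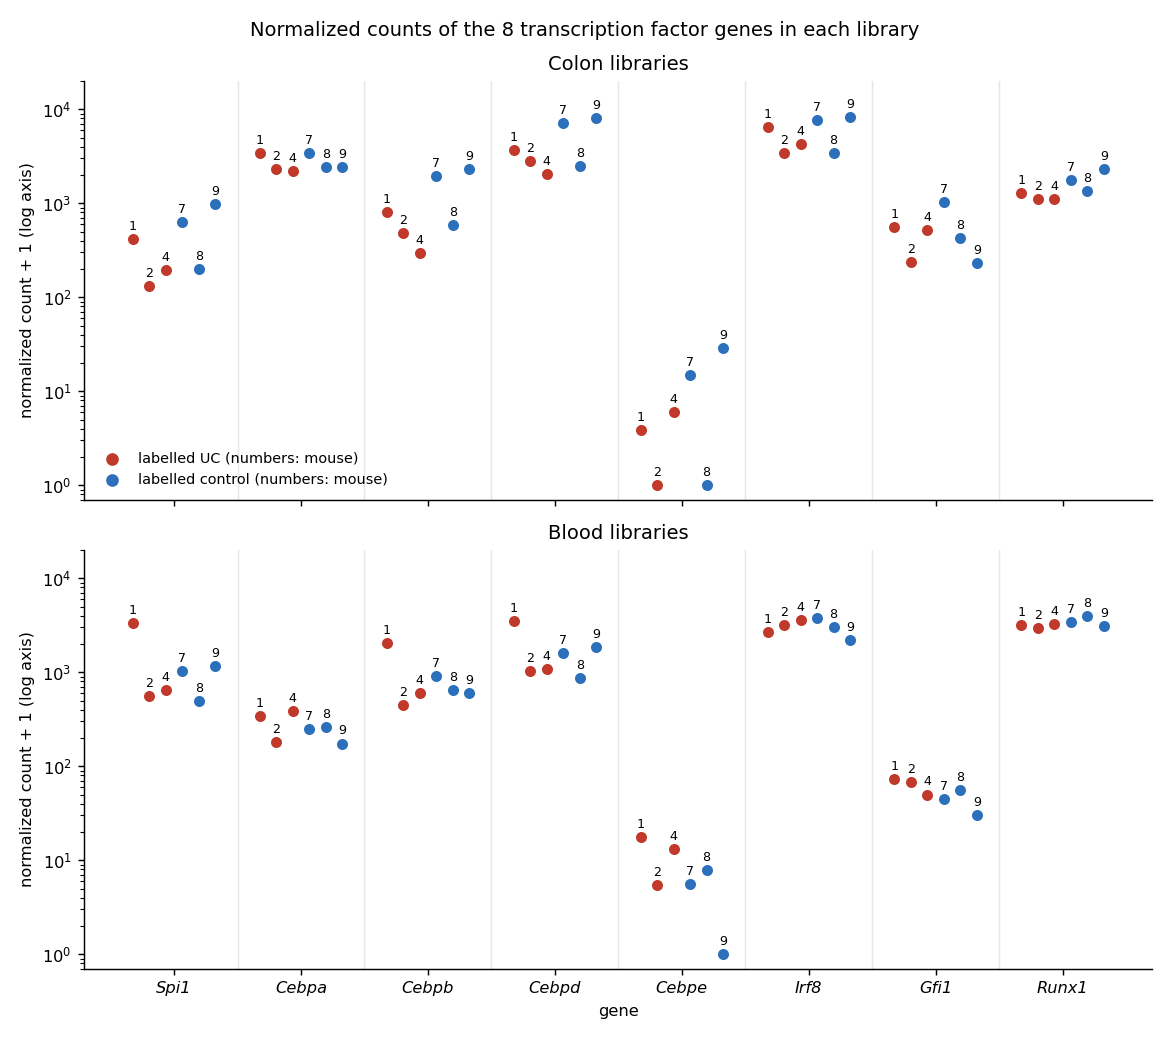
Normalized counts plus 1 (log axis) of the 8 genes in each colon library (top) and blood library (bottom), with a point for each mouse, numbered, in red where labelled UC and in blue where labelled control. In the colon Spi1, Cebpb, Cebpd and Irf8 are highest in mice 1, 7 and 9, while Cebpa stays between 2188 and 3440 and Gfi1 is lowest in mouse 9.

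The 3 highest colon values belonged to mice 1, 7 and 9 for 4 of the 8 members, namely Spi1, Cebpb, Cebpd and Irf8, and this order was found in 18.2% of all genes. The same 3 mice held the highest summed counts of 8 neutrophil markers, a list in which no marker was at 0 in every colon library. That sum came to 13114 in mouse 1, 5989 in mouse 7 and 41788 in mouse 9, against 186 to 372 in the other 3 mice. Pan-leukocyte genes (Ptprc, Laptm5, Cd53, Coro1a, Hcls1 and Vav1) summed to 11111 in mouse 1, 19123 in mouse 7 and 21929 in mouse 9, against 3712 to 6929 in the others. Monocyte and macrophage markers summed to between 7710 and 9587 in mice 2, 4 and 8 and to between 17180 and 25457 in mice 1, 7 and 9. The part of these cells in the levels of the members was not tested.

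Across the 6 colon libraries, the SD of log2 (normalized count + 1) was 1.16 for Cebpb and 1.13 for Spi1. Of 17727 colon genes with a mean of at least 50, 91.7% and 91.1% had a smaller SD. Cebpa, with an SD of 0.29, and Runx1, with 0.42, were close to the median gene, at 0.37. Likeness of pattern was measured as the root mean square difference between the centred log2 values of 2 genes over the 6 libraries, in which 0 means the same pattern. The measure also depends on spread, so that 2 genes that vary little have a small difference whatever their patterns. Among the members, Irf8 and Runx1 had the smallest difference in the colon (0.31), followed by Cebpb and Cebpd (0.35) and by Cebpd and Irf8 (0.38). The largest difference was that of Cebpb and Gfi1 (1.24).

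The protein-coding genes most like each member were then looked up among 13618 candidates in the colon. Spi1 was nearest to Ccl11 (0.10), the eosinophil chemokine eotaxin, and Kcnj8 (0.15), a potassium channel of vessel walls. Cebpd was close to Igfbp7 (0.13), and Cebpb was nearest to Sh3pxd2b (0.26) and S100a11 (0.26). Irf8 was nearest to Cyba (0.048), a subunit of the phagocyte oxidase, which ran from 2222 normalized counts in mouse 8 to 5386 in mouse 9, and next to Ogfrl1 (0.060). Runx1 was nearest to Cgnl1 (0.041), a junction protein gene, and Ssh2 (0.10). Cebpa was nearest to Mast4 (0.058) and Casp6 (0.068), and Gfi1 to the orphan receptor gene Gpr160 (0.20) and Stk10 (0.27). The genes nearest to Cebpb and Gfi1 were therefore less close to them than those nearest to the other members.

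In the blood, the clearest feature was mouse 1, which held the highest level of Spi1, Cebpb and Cebpd by a wide margin. Spi1 stood at 3353, 554 and 641 normalized counts in labelled UC blood (mice 1, 2 and 4) against 1036, 489 and 1174 in labelled control blood (mice 7, 8 and 9). Cebpb had 2064, 453 and 596 against 915, 643 and 608. Cebpd had 3475, 1030 and 1071 against 1602, 879 and 1840. In each of the 3 genes, the libraries of mice 2 and 4, labelled UC like mouse 1, lay within or below the range of those labelled control. The 3 highest blood values were in mice 1, 7 and 9 for Spi1 and Cebpd, 2 of the 8 members, against 11.8% of all genes tested in the blood.

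Irf8 and Runx1 differed little between the blood libraries. Irf8 stood at 2696, 3200 and 3568 normalized counts in labelled UC blood against 3761, 3037 and 2180 in labelled control blood, with the lowest values in mice 1 and 9. Runx1 had 3176, 2956 and 3248 against 3468, 4007 and 3085, so that its highest value was 1.36 times its lowest. Its SD of 0.16 on the log2 scale was among the smallest of all genes, since 6.2% of 12692 blood genes had a smaller one, whereas 95.7% had a smaller SD than Spi1, at 1.03. Mice 1 and 9 were also the lowest in summed counts of 5 B cell markers, at 16680 and 17804 against 21432 to 32030 in the others, and the part of B cells, which express Irf8, was not tested.

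Cebpa and Gfi1 were low in the blood and without a shared pattern. Cebpa stood at 344, 181 and 387 normalized counts in labelled UC blood against 250, 260 and 174 in labelled control blood. Gfi1 had 71.6, 67.7 and 49.1 against 43.6, 55.2 and 29.0. Cebpe, with at most 16 counts in a library, had 16.8, 4.52 and 12.3 against 4.59, 6.89 and 0 normalized counts, and the 0 of mouse 9 allowed up to 2.48. No member had labelled groups that did not overlap in the blood, where 6.5% of the genes did. Summed counts of 7 granulocyte precursor markers were 5654 in mouse 1, the highest for Cebpe, and between 121 and 448 in the other blood libraries. The lowest sum, 121, was that of mouse 4, which was next highest for Cebpe. The part of such cells in the level of Cebpe was not tested.

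Pattern likeness in the blood was measured in the same way. Irf8 and Runx1 again had the smallest difference (0.26), with Spi1 and Cebpd (0.28) next and Cebpb and Cebpd (0.36) after them. Since Irf8 and Runx1 varied little, with SDs of 0.29 and 0.16, their small difference does not show a shared pattern. Spi1 and Irf8, whose proteins form a complex, had the largest difference (1.07), and the SD of Spi1 was 1.03. Of 9909 candidate genes, Cebpd was close to Hmox1 (0.074), the heme-degrading enzyme. Irf8 was nearest to Blk (0.054), a kinase of B cells, which ran from 1203 normalized counts in mouse 9 to 2002 in mouse 4, and next to Fanca (0.056). Cebpb was nearest to Kif1c (0.054) and Tgfb1 (0.090), and Spi1 to 6430548M08Rik (0.097) and Por (0.10). Runx1, Cebpa and Gfi1 were nearest to Gorasp2 (0.043) and Gpank1 (0.043), Slx1b (0.10) and Itpkc (0.10), and Slc7a7 (0.11) and Poc1a (0.12), in that order.

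The comparison of UC with control asked whether the level of these genes differed between the labelled groups in each tissue. Because the inflammatory genes go against the labels, the comparison cannot answer whether colitis changes these genes. It was made with the libraries as labelled and edgeR's quasi-likelihood test over all genes, and significant differential expression (SDE) required an absolute log2FC over 1 together with an adjusted p (Benjamini-Hochberg) of 0.05 or less. Of the 8 members, 7 passed the filter on low counts in the colon and 0 were SDE, against 0.0045% of all genes tested (1 of 22238). The 7 log2FC values were all below 0, from -1.61 for Cebpb to -0.08 for Cebpa, meaning lower in the libraries labelled UC. Cebpb had a log2FC of -1.61 (SE 0.59, edgeR unadjusted p 0.0315), Runx1 of -0.65 (SE 0.23, p 0.0270), Cebpd of -1.06 (SE 0.46, p 0.0550) and Spi1 of -1.31 (SE 0.67, p 0.0953). Irf8, Gfi1 and Cebpa had -0.45, -0.39 and -0.08. The adjusted p was 0.9999 for each of the 7, and Cebpe was not tested.

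Of the 7 members tested in the colon, 2 (Cebpb and Runx1) had an unadjusted p under 0.05, as did 1.41% of all genes. DESeq2 and limma-voom also called 0 members SDE, with 3 and 2 at that level, as were 558 and 343 of all 22238 genes. The number rested on single mice: it was 6 of 8 tested without mouse 8, 3 of 8 without mouse 1 and 0 without mouse 2, 4, 7 or 9. Over all genes it also moved, to 1942 of 23122 without mouse 8 and 795 of 22754 without mouse 1. Without mouse 2, 4, 7 or 9 it was 202 to 275 genes.

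In the blood, 7 members were tested and 0 were SDE, like 0.0% of all 16759 genes. None had an unadjusted p under 0.05, against 1.44% of all genes, and DESeq2 and limma-voom gave 0 and 0 at both levels. The log2FC values ran from -0.18 for Runx1 to 0.75 for Spi1 (SE 0.69), with 0.55 for Gfi1, 0.51 for Cebpb, 0.41 for Cebpa, 0.36 for Cebpd and 0.07 for Irf8, and the adjusted p was 0.9998 for each. The positive sign of Spi1, Cebpb and Cebpd rested on mouse 1: without it their log2FC values were -0.58, -0.46 and -0.45.

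**Figure D2:**
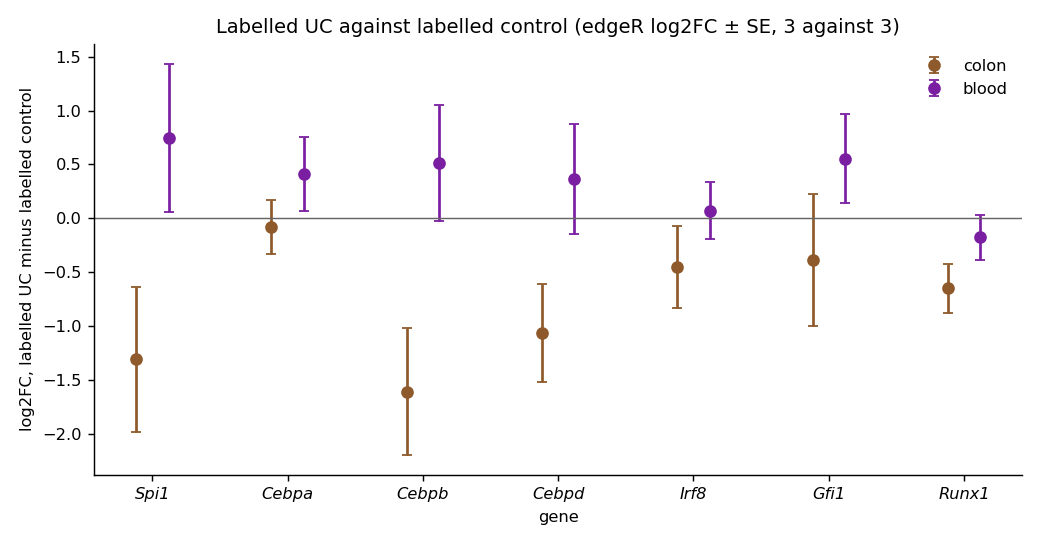
log2FC between the libraries labelled UC and labelled control (vertical axis) for the 7 members tested, in colon (brown) and blood (purple). Points are edgeR estimates and bars their SE. Colon values run from -1.61 to -0.08 and blood values from -0.18 to 0.75, and 0 members passed the test in either tissue.

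Whether the difference between the labelled groups was itself different in colon and blood was asked with an interaction term in a fit of all 12 libraries. Of the 8 members 0 had an adjusted p of at most 0.05, against 0.0043% of all genes, with DESeq2 and limma-voom also at 0. Cebpb had the only unadjusted p under 0.05, with a difference of log2FC (colon minus blood) of -2.15 (SE 0.91, edgeR p 0.0380, adjusted p 1.00). Spi1 had -2.07 (SE 1.10) and Cebpd -1.44 (SE 0.79). The number of members with an unadjusted p under 0.05 was 3 with the mouse as a replicate block (Spi1, Cebpb and Cebpd), 3 without mouse 8, 1 without mouse 2 and 0 without mouse 1, 4, 7 or 9. Over all genes that number was 793 of 23258 in the main fit and 466 of 23258 with the block. Without mouse 8 it was 1261 of 24064.

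Colon and blood were then compared over all 6 mice each. On the scale of CPM after TMM normalization, per kilobase of exon, Runx1 had 0.502 in the lowest colon library, a median of 0.614 and 1.07 in the highest, against 4.34, 4.87 and 5.94 in the blood. Spi1 ranged from 0.264 over a median of 0.628 to 2.04 in the colon and from 3.24 over 5.76 to 22.8 in the blood. Cebpa ranged from 4.53 over 5.12 to 7.44 in the colon and from 1.20 over 1.77 to 2.67 in the blood. For these 3 genes the ranges of the tissues were apart, with Runx1 and Spi1 higher in the blood and Cebpa higher in the colon.

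Cebpb, the last of the SDE members with more in the blood, had 1.08 to 8.63 CPM per kb in the colon (median 2.58) and 5.31 to 25.1 in the blood (median 7.48). Gfi1 went the other way, with 0.399 to 1.84 in the colon (median 0.820) and 0.165 to 0.411 in the blood (median 0.294). Both genes overlapped between the tissues. Cebpd had a median of 4.76 in the colon and of 6.60 in the blood, and Irf8 had 4.21 and 7.84, again with ranges that overlapped.

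In edgeR's quasi-likelihood test of this difference, 3 members were SDE and higher in the blood: Spi1 with a log2FC (colon minus blood) of -3.32 (SE 0.59, adjusted p 4.49e-04), Runx1 with -2.89 (SE 0.16, adjusted p 9.15e-08) and Cebpb with -1.62 (SE 0.46, adjusted p 0.00865). The 2 SDE members higher in the colon were Cebpa with 1.65 (SE 0.24, adjusted p 9.08e-05) and Gfi1 with 1.56 (SE 0.39, adjusted p 0.00408). Of all 23258 genes tested, 37.7% were SDE and higher in the colon and 20.8% were SDE and higher in the blood, so that tissue differences as such were common. Irf8 had a log2FC of -0.86 (edgeR adjusted p 0.00970), short of the fold threshold, and Cebpd -0.39 (adjusted p 0.397) and Cebpe -1.77 (adjusted p 0.136) did not pass.

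The directions between the tissues depended on the scaling. The 7SL RNA genes alone took 35.9% to 65.4% of all counts in the blood and 4.90% to 6.50% in the colon. The TMM factors were 0.347 to 0.721 in the blood and 1.91 to 2.32 in the colon. With the plain library size in their place, the median log2FC of all genes moved from 0.46 to 2.57. Spi1 then had -1.17 (edgeR adjusted p 0.0650) and Runx1 -0.74 (adjusted p 0.00802), both no longer SDE. Cebpb turned to 0.58, Cebpd to 1.75, Cebpe to 0.48 and Irf8 to 1.27, and 4 members (Cebpa, Gfi1, Cebpd and Irf8) were SDE and higher in the colon with 0 higher in the blood. Of all 23258 genes tested, 17887 were then SDE and higher in the colon and 1757 SDE and higher in the blood. With the library size over the genes of the normalized tables, which leave out 7SL (a scaling added after the data had been seen), Spi1 had -2.11, Runx1 -1.78, Cebpb -0.42, Cebpd 0.80, Irf8 0.23, Cebpa 2.74 and Gfi1 2.68. Under each of the 3 scalings Spi1 and Runx1 had a negative log2FC and Cebpa and Gfi1 a positive one.

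**Figure D3:**
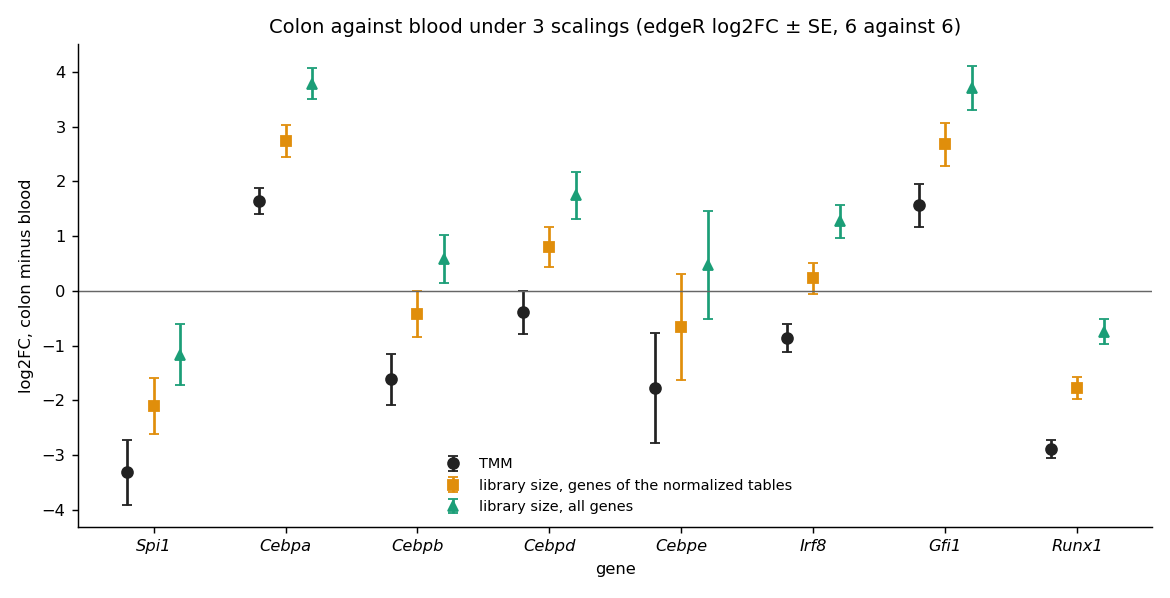
log2FC between colon and blood (vertical axis, above 0 is higher in colon) of the 8 members under TMM (black), library size over the genes of the normalized tables (orange) and library size over all genes (green). Points are edgeR estimates with SE bars. Spi1 and Runx1 stay below 0 and Cebpa and Gfi1 above it, while Cebpb, Cebpd, Cebpe and Irf8 cross it.

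The make-up of the set within each library does not depend on the scaling, since a scaling factor acts on all members alike. Cebpa held 14.1% to 33.2% of the summed CPM per kb of the 8 genes in the colon (median 32.0%) and 3.00% to 7.86% in the blood (median 4.19%). Spi1 held 1.83% to 5.68% in the colon and 10.5% to 28.6% in the blood. For Runx1 the shares were 2.35% to 4.06% and 6.06% to 19.3%. In these 3 genes every colon library lay apart from every blood library. The shares of the other 5 overlapped, and Cebpd took 21.9% to 33.7% in the colon and 13.6% to 24.9% in the blood.

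**Figure D4:**
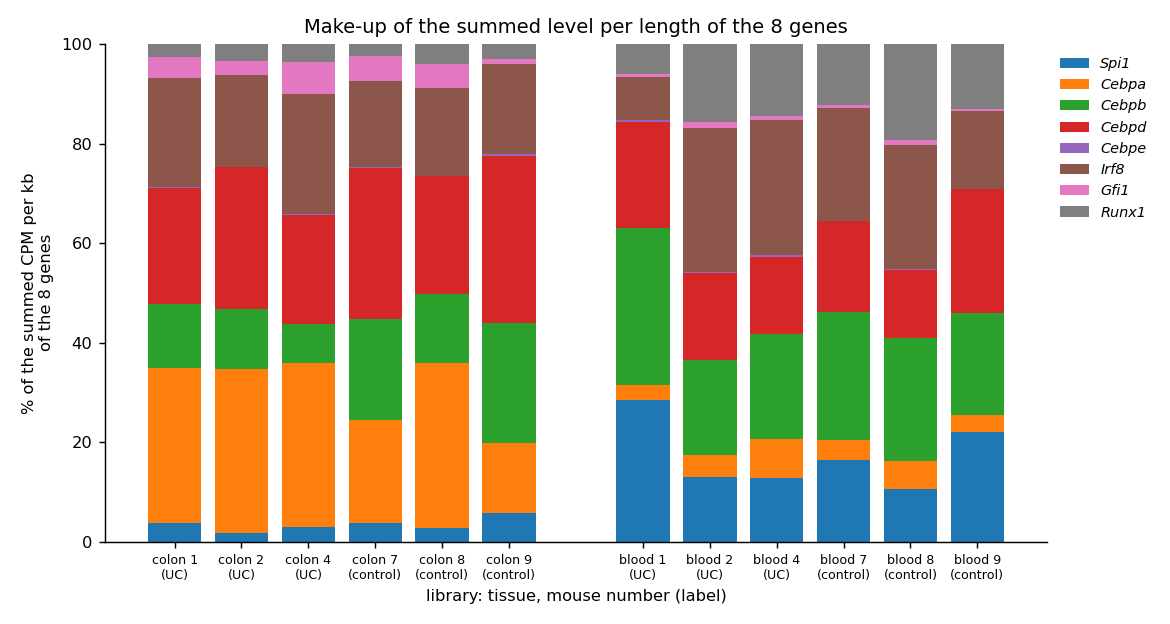
Share of each gene in the summed CPM per kb of the 8 genes (vertical axis, percent), as a stacked bar for each library with its mouse number and label. The orange band of Cebpa takes 14.1% to 33.2% of the colon bars and 3.00% to 7.86% of the blood bars, and the blue band of Spi1 and the gray band of Runx1 are wider in the blood.

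Within a tissue the levels per length differed widely between the members. In the colon the order of mean CPM per kb was Cebpd (6.53 ± 3.93, SD over 6 libraries), Cebpa (5.70 ± 1.29), Irf8 (4.41 ± 1.71), Cebpb (3.99 ± 3.17), Spi1 (0.879 ± 0.689), Gfi1 (0.876 ± 0.531), Runx1 (0.691 ± 0.224) and Cebpe (0.0372 ± 0.0489). Neighbours in this order overlapped in range except Runx1 and Cebpe, although Cebpb exceeded Spi1 in 6 of 6 libraries. Cebpd was above Cebpa in only 2 of 6 libraries and Spi1 above Gfi1 in 1 of 6, so that the order of the means was not that of most libraries. In the blood it was Cebpb (10.7 ± 7.35), Spi1 (8.17 ± 7.40), Cebpd (8.02 ± 4.77), Irf8 (7.91 ± 1.56), Runx1 (5.01 ± 0.572), Cebpa (1.83 ± 0.602), Gfi1 (0.299 ± 0.0878) and Cebpe (0.110 ± 0.0894). There the ranges of Runx1 and Cebpa and of Cebpa and Gfi1 were apart, and the first 4 genes overlapped in all neighbour pairs. Spi1 was above Cebpd in 1 of 6 blood libraries and Cebpd above Irf8 in 2 of 6. The order of the first 4 rested on mouse 1: without it the means were 8.09 for Irf8, 7.77 for Cebpb, 6.23 for Cebpd and 5.26 for Spi1, and the medians of all 6 libraries had the same order, at 7.84, 7.48, 6.60 and 5.76.

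A further measure, which a scaling factor moves only through the pseudocount, is the level of a member relative to that of leukocytes as a whole. It was taken as log2 (CPM + 0.5), with CPM per library total over the genes of the normalized tables, minus the mean of the same for the 6 pan-leukocyte genes in that library. Relative to these genes all 8 members were higher in the colon in 6 of 6 mice, but so were 95.4% of all 23196 genes tested, so that this count says nothing about the members. The reference genes themselves were all SDE and higher in the blood, with a median log2FC of -4.42, and the median difference of all genes was 4.29. Of the 8 members, 6 lay below that median. Cebpa was at 1.00 ± 0.87 (SD) in the colon and at -5.06 ± 0.46 in the blood, a difference of 6.06. Gfi1 differed by 5.46 (4.67 with a pseudocount of 2), Cebpd by 4.16, Irf8 by 3.58 and Cebpb by 2.93. Runx1 differed by 1.62, from 0.14 ± 0.68 to -1.48 ± 0.38, and Spi1 by 1.42, from -1.84 ± 0.33 to -3.26 ± 0.73. The colon and blood values of Spi1 overlapped only through blood mouse 1, at -1.93. Cebpe was near the pseudocount in both tissues, so that its difference of 3.31 says little about Cebpe itself. Of all genes, 5.18% had a smaller difference than Spi1 and 5.82% a smaller one than Runx1, against 14.2% for Cebpb, 25.6% for Irf8, 45.9% for Cebpd, 76.7% for Gfi1 and 83.8% for Cebpa.

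By an exact 2-sided permutation test that treats the 12 libraries as independent, the p was 0.00866 for Spi1 and 0.00216 for the other 7. Both tissues came from the same mice, and with the pairing the exact p was 0.0312 for each of the 8 genes, the smallest that 6 pairs can give. An unadjusted exact p of at most 0.05 and a higher level in the colon, without the pairing, were found in 96.0% of all genes, so that these tests do not tell the members from other genes. Markers of cells other than leukocytes were higher in the colon: the log2FC (colon minus blood, TMM) ran from 6.26 to 11.60 over 5 fibroblast markers and from 3.76 to 17.97 over 7 epithelial markers. The part of such cells in the colon level of each member was not tested.

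**Figure D5:**
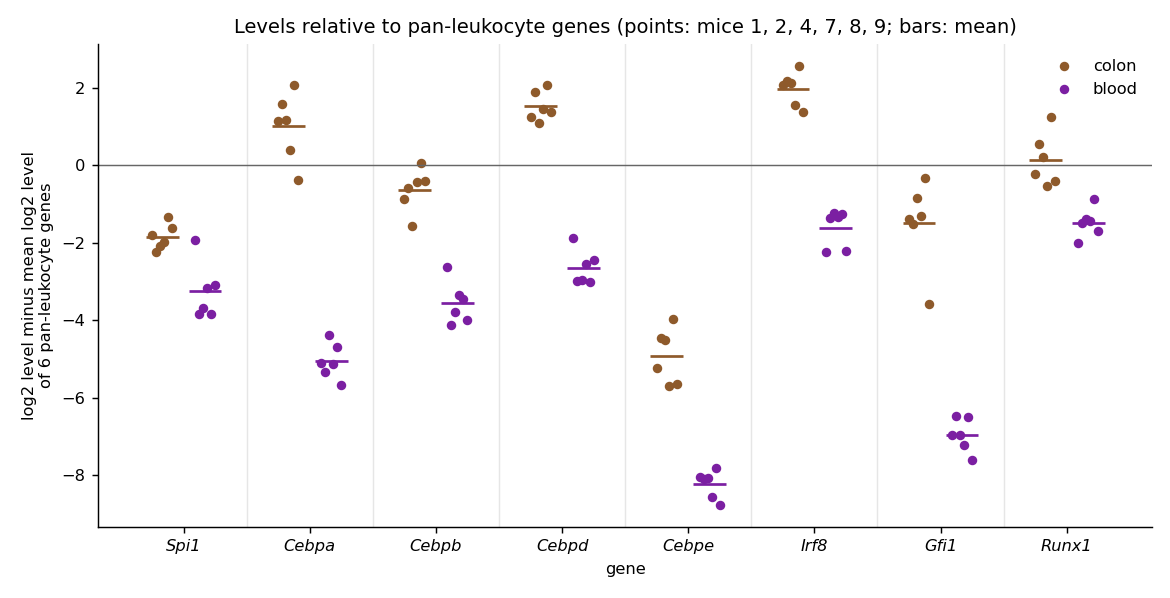
Level of each member relative to 6 pan-leukocyte genes (vertical axis, log2 difference) in the 6 colon (brown) and 6 blood (purple) libraries, with a point for each mouse and a bar at the mean. Colon points lie above blood points for each gene except Spi1, where blood mouse 1 reaches into the colon range, and the gap is widest for Cebpa, at 6.06.

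The genes around the members were read as lists of relatives, signals and targets. Between the labelled groups, edgeR called 0 of the 186 list and marker genes tested in the colon SDE (5 had an unadjusted p under 0.05), 0 of 166 in the blood (5) and 0 of 194 in the interaction (6). DESeq2 called 0, 0 and 1, and limma-voom 0 in each. Of 11 known PU.1 targets, 11 had their 3 highest colon values in mice 1, 7 and 9, the same mice as Spi1, and 8 of 11 did so in the blood. Of the receptors for myeloid growth factors and cytokines, such as Csf1r and Csf3r, 10 of 12 did so in the colon, and of the growth factors and cytokines themselves 6 of the 7 tested. Known C/EBPε targets, the secondary granule genes, did so in 6 of 6 tested in the colon and in 5 of 7 in the blood, although Cebpe itself was at most at 27.9 normalized counts. Acute phase genes known as targets of C/EBPβ and C/EBPδ did so in 5 of 5 tested in the colon. For IRF8 targets the number was 2 of 7 in the colon and 1 of 6 in the blood. Over all genes tested, 18.2% had this order in the colon and 11.8% had it in the blood. The order was not particular to the target lists. In the colon, 7 of 7 neutrophil, 5 of 5 T cell and 7 of 8 monocyte and macrophage markers tested had it. B cell markers had it in 0 of 5 and dendritic cell markers in 2 of 6. Blood libraries showed it for 8 of 8 neutrophil, 2 of 8 monocyte and macrophage and 0 of 5 T cell markers.

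Transcription factors related to the members were read in the same way. Their 3 highest colon values were in mice 1, 7 and 9 for 4 of 10 C/EBP partners, 5 of 16 ETS and IRF factors, 2 of 5 RUNX family genes, 1 of 6 GFI1 family genes and corepressors, 4 of 16 other monocyte, macrophage and dendritic cell factors and 5 of 13 tested factors of other blood lineages. For comparison, the share over all colon genes is the 18.2% given above. Trib1, which marks C/EBPα for degradation, had 20201 normalized counts in colon mouse 2 and between 2256 and 3917 in the other 5.

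Between the tissues the lists split, and the counts that follow are on the TMM scale, with the plain library size named where it turned them. For comparison, 37.7% of all genes were SDE and higher in the colon with TMM and 20.8% higher in the blood. With the library size, 17887 of all 23258 genes were SDE and higher in the colon and 1757 higher in the blood. Of the RUNX family genes, 3 of 5 were SDE and higher in the blood, with a median log2FC of -1.20 against 0.46 for all genes, whereas with the library size 2 of 5 were higher in the colon and 0 in the blood. Runx2 and Runx3 had -2.58 (SE 0.41, edgeR adjusted p 1.86e-04) and -2.02 (SE 0.48, adjusted p 0.00287), next to -2.89 for Runx1, but with the library size they had -0.45 and 0.11 and neither was SDE. Of the ETS and IRF factors, 3 of 16 were SDE and higher in the colon and 7 higher in the blood (8 and 4 with the library size). The lowest log2FC among them was that of the blood and vessel factor Fli1, at -4.76 (SE 0.28, edgeR adjusted p 1.34e-07). PU.1 targets were SDE and higher in the blood in 8 of 11 and higher in the colon in 0, with a median of -2.74 (4 and 2 with the library size, median -0.62). C/EBPε targets were higher in the blood in 4 of 7, and IRF8 targets in 2 of 7, Ciita and Clec9a, with 0 higher in the colon in both lists. With the library size, C/EBPε targets were higher in the blood in 2 of 7, and 5 of 7 IRF8 targets were higher in the colon.

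Among the C/EBP partners, 2 of 10 were SDE and higher in the colon and 3 higher in the blood (7 and 2 with the library size), with Batf2 at 6.96 (SE 0.68, edgeR adjusted p 4.96e-06) and the leukocyte factor Batf at -3.75 (SE 0.48, adjusted p 4.03e-05). The GFI1 paralog Gfi1b, a factor of red cells and platelets, had a log2FC of -5.48 (SE 0.84, edgeR adjusted p 1.53e-04), opposite in sign to Gfi1 at 1.56. Factors of other blood lineages were higher in the blood in 11 of 14 (7, with 2 higher in the colon, with the library size). Monocyte, macrophage and dendritic cell factors were higher in the colon in 7 of 16 and in the blood in 3 (12 and 1 with the library size). Of the GFI1 family and its corepressors, 1 of 6 was higher in the colon (5 with the library size) and 1 in the blood. Receptors were higher in the blood in 6 of 12, with Csf3r at -6.02, and in the colon in 3, with Osmr at 8.89 (1 and 5 with the library size). Growth factors and cytokines were higher in the colon in 2 of the 7 tested, Csf3 and Kitl, and in the blood in 3 (4 and 0 with the library size). Acute phase genes were higher in the colon in 1 of 6, C3 (3 with the library size), and promyelocyte targets of C/EBPα and GFI1 were higher in the blood in 2 of the 3 tested, Csf3r and Mpo (1 with the library size).

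Markers of whole cell types put these tissue differences in context. Of the leukocyte markers, 8 of 8 of neutrophils, 5 of 5 of B cells and 5 of 5 of T cells were SDE and higher in the blood, as were 5 of 8 of monocytes and macrophages (with 2 higher in the colon, and with 1 and 3 under the library size), 3 of 6 of dendritic cells (1, with 2 higher in the colon, under the library size), 3 of the 5 tested of granulocyte precursors (1 under the library size) and 2 of the 3 tested of eosinophils (1). Mast cell markers were higher in the colon in 3 of 5. All 5 platelet markers were higher in the blood. All 5 markers of secretory and tuft epithelium, 5 of adipocytes and 4 of smooth muscle were higher in the colon, and the 4 endothelial markers split, with 2 in each direction (2 in the colon and 1 in the blood under the library size). Adipocyte markers, of a cell type that uses Cebpa, summed to 9904 normalized counts in colon mouse 1 and to between 896 and 2454 in the other 5 colon libraries, and Cebpa was at 3433 in mouse 1 and at 3440 in mouse 7. Secretory and tuft markers summed to 37156 in colon mouse 1 and 24384 in mouse 7, the libraries with the most Gfi1, and to between 9098 and 11193 in the others. Chga alone made up 23444 and 15467 of the sums in mice 1 and 7. Gfi1 was at 558 in mouse 1 and close to it, at 516, in mouse 4, where the markers summed to 10078. The part of either cell type in these levels was not tested.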

How the data were processed

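Total RNA-seq libraries of colon and blood from 6 mice were analysed, in groups taken from the disease and tissue characteristics of the labels. The 8 genes, the lists around them and the tests were chosen with earlier results of these data known. The authors trimmed the reads and filtered out ribosomal sequence, aligned to GRCm38 (STAR) and estimated Ensembl gene abundance with StringTie 1.3.4c, with no strand option stated. The deposited count table holds whole-number gene counts derived from transcript coverage. The deposited normalized tables hold a signal in which the authors divided each count by 1 size factor per library, separately in each tissue, and these values were therefore not set across tissues.

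The test was edgeR 4.0.16 under R 4.3.3 (TMM, filterByExpr, glmQLFit and glmQLFTest) over all genes, and p-values were adjusted after Benjamini-Hochberg. An SE was obtained as log2FC over the root of the F statistic. Levels per length are TMM-scaled CPM per kb of merged exons (GENCODE, GRCm38), from the fit of all 12 libraries. The level relative to pan-leukocyte genes was compared with an exact permutation test (scipy 1.17.1). Depth sets the precision: a count of 0 allows up to 3 counts, and intervals of that kind cover counting error only. The steps were tested on simulated data that varied less between libraries than these data, so that this says nothing about the power of the tests here.

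Named were the 8 members, up to 2 genes a list with the largest absolute log2FC past the test, and the 2 protein-coding genes nearest in pattern to each member with a mean normalized count of at least 50 (candidates: at least 100). Of the genes this rule names, 3 are not reported here. Trib1, Cyba and Blk values were singled out after they were seen. The marker lists also covered T cells, dendritic cells, mast cells, eosinophils, platelets, secretory epithelium, adipocytes, endothelium and smooth muscle. Alternatives were RLE or library size scaling, other filters, DESeq2 1.42.0, limma-voom (limma 3.58.1), only genes of the normalized tables, a fit of all libraries, each mouse left out, and the mouse as a replicate block. Both tissues came from the same animals, per the study's methods, and deviations from group means of same-numbered libraries correlated at r of 0.0857 to 0.271 over 15802 genes, over 0.1 in 4 of 6. The symbol Ddit3 belongs to 2 gene IDs, of which ENSMUSG00000025408 was used.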

Additional observations from a re-analysis of the deposited data

How the results depend on the processing

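The number of SDE members kept within its main value or 1.5 times of it under every alternative run: 0 between the labelled groups in colon and in blood, 0 in the interaction, and 4 to 6 between the tissues. Between the tissues the number hides a change of members and direction: with TMM 2 were higher in colon and 3 higher in blood, with the library size 4 and 0, of which Cebpa and Gfi1 alone were called under both. Of all 23258 genes, 8759 were SDE and higher in colon and 4845 higher in blood with TMM. With the library size these numbers were 17887 and 1757. With each mouse left out, the SDE members between colon and blood numbered 5 to 6. With the mouse as a replicate block there were 5 (2 higher in colon, 3 higher in blood) and 0 in the interaction, and the block changed no call. With the library size in place of TMM, the colon minus blood log2FC turned to 0.58 for Cebpb, 1.75 for Cebpd, 0.48 for Cebpe and 1.27 for Irf8, and the blood log2FC of labelled UC against control to -0.16 for Cebpd and -0.18 for Irf8. With the library size over the genes of the normalized tables, a setting chosen after seeing the data, Cebpd turned to 0.80 and Irf8 to 0.23. With 1 mouse left out, the log2FC of labelled UC against control ran in the colon from -0.31 to 0.11 for Cebpa and from -0.77 to 0.39 for Gfi1, and in the blood from -0.58 to 1.15 for Spi1, from -0.46 to 0.87 for Cebpb, from -0.45 to 0.66 for Cebpd and from -0.11 to 0.27 for Irf8. The cause of these turns was not tested. Depth limits Cebpe, which had at most 31 counts in a library, and the 3 mice a group limit the rest.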
